A study of Homo sapiens with 6 samples.

Results

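The 3 OCI-LY8 libraries that carried a non-targeting guide RNA, out of 6 libraries in the study, were taken by their sample titles and are described here as the baseline transcriptome of this line. OCI-LY8 is a human B-cell lymphoma line, and the labels give its cell type as lymphoma. The control cells carried the guide sgNTC1, designed to have no target in the genome, and their genotype label is WT. They grew in RPMI medium with fetal bovine serum and glutamine, with no drug or other agent named in the labels. The series' design text speaks of OCI-LY19, a KMT2D mutant line, while the label of each of the 3 libraries names OCI-LY8, and the labels were followed. Whether the replicates were separate cultures is not in the labels, and the spread between them may be technical. The knockout libraries of the study were not used.

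B cells assemble their antigen receptor genes in the bone marrow with the RAG recombinase, leave as naive cells, and in the germinal centre of a lymph node divide quickly while their antibody genes are mutated. Cells that leave the germinal centre become memory B cells or antibody-secreting plasma cells. Each of these stages has its own transcription factors, and BCL6 in the germinal centre and PRDM1 in the plasma cell are the best known. Lymphomas of germinal centre type keep much of that stage's programme, and survival proteins of the BCL2 family set how readily such cells die.

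Poly(A) RNA was sequenced, and 34453249, 28726108 and 30259783 reads were assigned to genes in replicates 1, 2 and 3. Levels are given as CPM, counts per 1000000 assigned reads, as the mean ± SD of n = 3 libraries unless stated. CPM ranks a gene by its share of reads, which also rises with transcript length. A per-length level, the count per kilobase of exon scaled to 1000000 over all genes with a length, is given where genes are put in order by level. Orders by CPM are named as such and rank shares of reads, and CPM values listed side by side are no such order. A gene was called expressed at a mean of 1 CPM or more. Of 26485 gene symbols, 11797 passed (44.5%), and of 19112 protein-coding symbols 10679 passed (55.9%). The 55.9% is the background for every count of expressed list or family members below, and a count near it is no trait of the list. No read was found in any of the 3 libraries for 8983 symbols (33.9%), among them 4885 protein-coding ones (25.6%). For such a gene the upper limit is 3 counts over the 3 libraries, or 0.0321 CPM, which covers counting error only.

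The libraries carried the defining B-cell transcripts at high levels. Of 33 genes for B-cell identity and antigen receptor signalling, 31 were expressed, and 18 reached 100 CPM. MS4A1, which encodes CD20, stood at 435, 441 and 455 CPM in replicates 1, 2 and 3, and the 3 libraries lay close together. CD79A and CD79B, the signalling chains of the receptor, had 343 ± 7.52 and 504 ± 12.5 CPM, and on the per-length scale CD79B (1122 ± 24.9) was above CD79A (771 ± 15.0) in every library. CD74, the invariant chain that guides MHC class II molecules, had the highest per-length level of the list, 2168 ± 13.7. Among the receptor's kinases SYK had 471 ± 1.58, LYN 187 ± 7.66 and BTK 56.5 ± 3.48 CPM. In the list 2 members had no read in any library, and both sit on the receptor pathway: VAV1, a guanine nucleotide exchange factor downstream of SYK, and CR2, the complement receptor CD21. Immunoglobulin heavy and light chain genes are not analysed here.

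Markers of other cell types were mostly below 1 CPM, with exceptions in each list and the highest of them by CPM among T-cell genes. Of 19 T and NK cell markers 6 were expressed, and their summed level ran from 195 to 198 CPM over the 3 libraries. ZAP70, the kinase that T cells use next to their receptor, accounted for much of it with 102, 98.7 and 102 CPM in replicates 1, 2 and 3. CD4 had 50.6 ± 1.76 CPM, LCK 14.4 ± 1.09 and PRF1 14.1 ± 0.792 CPM. The coreceptor chain CD8A had 6.73 CPM. Of the chains of the T-cell receptor complex, CD247 was expressed, with 8.59 CPM. CD3E and CD3G were near 0, at 0.247 ± 0.102 and 0.235 CPM, and CD3D had no read. NCAM1, KLRD1 and GZMB also had no read. Myeloid markers reached 1 CPM in 5 of 16 cases and summed to 23.0 to 29.6 CPM, with CST3 highest by CPM at 13.4 ± 1.54 and MPO, ELANE, S100A8, S100A9 and FCGR3A at no read. Of 10 erythroid and platelet, 9 epithelial and 13 fibroblast and endothelial markers, 1 each was expressed, and these were EPOR, MUC1 and PECAM1. In bulk RNA a few cells with much of a transcript cannot be told apart from many cells with little of it.

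By CPM the highest symbols came from several kinds of gene, with TCL1A and RAG1 of the B-cell lists among the first 25. GAPDH of glycolysis led with 4002, 3767 and 3778 CPM in replicates 1, 2 and 3. ACTB (beta-actin) followed with 3808 ± 150 CPM, then the translation factor EEF2 with 3480 ± 118, the ribosomal protein gene RPL4 with 3448 ± 14.2 and HNRNPA2B1, an RNA-binding protein, with 3446 CPM. The next 5 by CPM were PABPC1, RPS3, HSP90AB1, KIAA0226L and EEF1A1. KIAA0226L, now named RUBCNL and known for a role in autophagy, stood at rank 9 with 2581, 2693 and 2697 CPM. TCL1A, a protein that binds and activates AKT, stood at rank 18, and RAG1 at rank 25. The remaining ranks to 20 were held by RPS6, HSP90AA1, TPT1, PKM, RPLP0, PRKDC, NCL, EIF4G2 and RPL8. PRKDC, the catalytic subunit of the DNA-dependent kinase that repairs breaks, including those made by the RAG recombinase, had 2026 ± 43.9 CPM.

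Among the 26485 deposited symbols no small group held most of the counts. The matched symbols include no class of immunoglobulin chain genes. Reads of genes without a deposited symbol are outside these shares, so the shares do not cover the whole RNA of the cells. The 10 most abundant genes held 3.25 ± 0.0310% of the counts and the 100 most abundant 15.2 ± 0.122%, and 1036 genes were needed to reach 50% of the counts. Genes at 1000 CPM or more numbered 79 and held 13.3% of the counts. The 2458 genes between 100 and 1000 CPM held 57.5%, and the 6570 between 10 and 100 CPM held 27.9%. Another 2690 genes lay between 1 and 10 CPM with 1.15% of the counts, and 5705 genes with reads lay below 1 CPM with 0.0995%. Protein-coding genes took 98.2% of the counts. Of 2314 long non-coding symbols 416 were expressed, with 0.918% of the counts. By CPM MALAT1, a nuclear RNA of speckles, led these with 617 ± 82.7 CPM, and NEAT1, the scaffold of paraspeckles, had 605 ± 66.5 CPM.

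**Figure D1:**
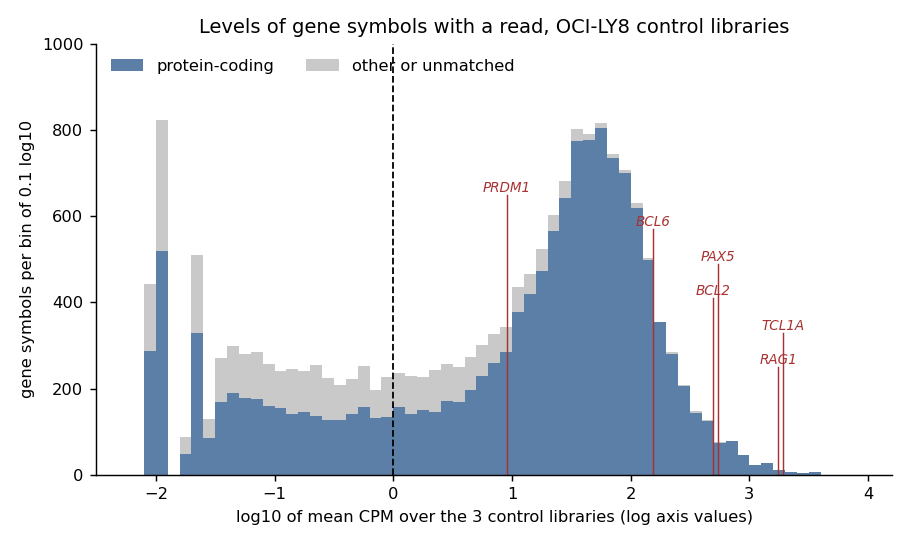
Number of gene symbols by the log10 of their mean CPM over the 3 control libraries, in bins of 0.1, with protein-coding symbols in blue and all others in grey on top; the dashed line is 1 CPM. The symbols with a read form a main peak between 10 and 100 CPM, where 6570 symbols lie, and red lines mark 6 named genes from PRDM1 (9.04 CPM) to TCL1A (1923 CPM).

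On the per-length scale the order changed. The 3 highest entries, MIR4426, MIR3654 and LUZP6, are annotated with only 63, 56 and 177 bases, and MIR4426 and MIR3654 are microRNA entries, which a poly(A) library does not measure as mature RNA. Among the highest entries below them were RPL30 (5907 ± 71.5), ACTB (5417 ± 197), RPS12 (4955 ± 94.5), GAPDH (4902 ± 155), RPL13A (4474 ± 44.7) and RPS13 (4473 ± 47.2). Cytosolic ribosomal protein genes took 7.06 ± 0.0118% of the counts, and 80 of the 82 were expressed. Many of these genes have near-identical processed copies elsewhere in the genome, so their counts are uncertain. TCL1A kept a high per-length level, 3128 ± 28.1, at rank 25 among all symbols with a length. RAG1, whose exons join to 6564 bases, fell to rank 165 with 753 ± 14.4.

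Genes of precursor B cells were divided, with 8 of 16 expressed, against 55.9% of all protein-coding symbols. RAG1 and RAG2 encode the recombinase that cuts the antigen receptor genes. RAG1 had 1713, 1750 and 1770 CPM in replicates 1, 2 and 3, from 59028, 50260 and 53564 reads. RAG2, its neighbour on chromosome 11, had 176, 191 and 185 CPM. On the per-length scale RAG1 (753 ± 14.4) stayed above RAG2 (185 ± 7.81) in every library. IGLL1 and VPREB1, the parts of the surrogate light chain that pairs with the heavy chain in precursor cells, had 53.6 ± 1.19 and 14.4 ± 0.654 CPM. IGLL1 has a near copy, IGLL5, at 67.8 ± 2.95 CPM, and the division of reads between the pair is uncertain. VPREB3, a related protein, had 43.2 ± 1.78 CPM. CD9, a tetraspanin of the cell surface, had 177 ± 3.54 CPM, and the transcription factors SOX4 and LEF1 had 158 ± 4.68 and 110 ± 1.82 CPM. The remaining members lay below 0.4 CPM. DNTT, the polymerase that adds untemplated bases at receptor joints and usually accompanies the recombinase in precursor cells, had 5, 4 and 3 reads. IL7R, FLT3 and CD34, a cytokine receptor, a receptor kinase and a stem cell marker, had 0.0769 ± 0.0520, 0.0226 ± 0.0196 and 0.0220 ± 0.0382 CPM, and KIT had no read.

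TCL1A alone among the members of the naive and memory list was above 100 CPM, with 1947, 1902 and 1919 CPM in replicates 1, 2 and 3. Of 17 members 9 were expressed, against 55.9% of all protein-coding symbols. The list's median was 1.23 CPM, against 4.99 CPM for all protein-coding symbols. IL4R, a cytokine receptor, had 43.2 ± 1.04, TNFRSF13B 16.0 ± 0.499, the homing receptor CCR7 11.8 ± 0.965, the memory marker CD27 9.65 ± 0.101 and FCER2, which encodes CD23, 4.62 ± 0.176 CPM. CD44, the hyaluronan receptor of many activated lymphocytes, and ITGAX, the integrin chain CD11c, had no read in any library. The promoter windows of TCL1A and RAG2 are shown to set a CpG-rich window of an abundant gene beside a window with no CpG. They run from 250 bases before to 50 bases after the start of the gene in RefSeq (GRCh38.p14), read 5′ to 3′ along the gene, with each CpG in capitals. TCL1A lies at chr14:95714076-95714375 on the minus strand and holds 26 CpG with 70.7% G or C. RAG2 lies at chr11:36598187-36598486 on the minus strand and holds 0 CpG with 36.7% G or C.
TCL1A: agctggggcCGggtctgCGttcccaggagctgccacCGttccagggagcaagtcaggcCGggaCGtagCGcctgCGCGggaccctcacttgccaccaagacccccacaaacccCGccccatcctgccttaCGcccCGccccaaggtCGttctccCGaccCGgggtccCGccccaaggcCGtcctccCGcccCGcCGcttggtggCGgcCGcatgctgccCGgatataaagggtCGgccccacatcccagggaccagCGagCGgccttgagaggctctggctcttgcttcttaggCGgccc
RAG2: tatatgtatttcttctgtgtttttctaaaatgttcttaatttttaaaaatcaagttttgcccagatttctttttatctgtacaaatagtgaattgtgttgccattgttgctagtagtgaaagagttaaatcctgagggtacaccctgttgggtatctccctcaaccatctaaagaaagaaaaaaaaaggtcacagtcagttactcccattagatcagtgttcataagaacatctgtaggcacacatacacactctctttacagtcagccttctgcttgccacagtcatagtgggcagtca

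The germinal centre list was largely expressed, with 24 of 28 members at 1 CPM or more and a median of 53.4 CPM. CXCR4, the chemokine receptor that holds dividing cells in the dark zone, had 567, 598 and 616 CPM in replicates 1, 2 and 3. MME, which encodes CD10, had 449, 465 and 452 CPM. BCL6, the repressor that defines the stage, had 161, 151 and 149 CPM, and replicate 1 was the highest. LRMP had 451 ± 15.3, BACH2 377 ± 5.98, GCSAM, a germinal centre signalling and motility protein, 230 ± 8.93, MEF2B 98.8 ± 1.34 and the follicle-homing receptor CXCR5 32.5 ± 1.41 CPM. LMO2 and S1PR2, which confines cells to the germinal centre, had 8.91 ± 0.642 and 4.51 ± 0.216 CPM. On the per-length scale CXCR4 (834 ± 37.0) led the list, STMN1 (660 ± 3.56) came next, and with the longest transcript as the length STMN1 stood first. With exon length, 6 of the 23 neighbouring pairs in the order overlapped between libraries.

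A few defining germinal centre genes were at or near 0. RGS13, a regulator of chemokine signalling, had 31, 24 and 19 reads, or 0.788 ± 0.142 CPM. SERPINA9, a protease inhibitor named centerin after the germinal centre, had no read. Its promoter window and that of VPREB3 are shown together because both hold the octamer ATGCAAAT, the element of antibody gene promoters that POU2F1 and POU2F2 bind, while only VPREB3 had reads. On the strand shown the octamer reads ATTTGCAT, in capitals. It was searched on both strands and occurs in 179 of 11725 protein-coding promoter windows (1.53%). VPREB3 lies at chr22:23754376-23754675 on the minus strand with 1 match, and SERPINA9 at chr14:94476148-94476447 on the minus strand with 2 matches that do not overlap. A match is a description of these letters and shows no binding. POU2F1, POU2F2 and their B-cell coactivator POU2AF1 had 133 ± 1.84, 106 ± 3.68 and 332 ± 2.46 CPM.
VPREB3: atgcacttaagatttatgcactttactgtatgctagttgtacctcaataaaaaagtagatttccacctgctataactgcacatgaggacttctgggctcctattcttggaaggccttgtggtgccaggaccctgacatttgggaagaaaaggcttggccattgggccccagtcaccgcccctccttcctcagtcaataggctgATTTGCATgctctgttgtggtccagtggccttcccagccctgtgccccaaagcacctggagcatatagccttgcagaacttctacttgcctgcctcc
SERPINA9: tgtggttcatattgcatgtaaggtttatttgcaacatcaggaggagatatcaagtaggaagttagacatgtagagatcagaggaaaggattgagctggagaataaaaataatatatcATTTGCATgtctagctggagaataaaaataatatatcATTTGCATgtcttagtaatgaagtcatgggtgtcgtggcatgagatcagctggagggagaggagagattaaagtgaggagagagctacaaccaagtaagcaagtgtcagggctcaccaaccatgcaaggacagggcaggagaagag

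Genes of the light zone, where germinal centre cells receive CD40 and antigen receptor signals, lay near the background. Of 20 members 12 were expressed, against 55.9% of protein-coding symbols, and the median was 4.94 CPM, against 4.99 CPM. MYC stood apart with 445, 435 and 444 CPM in replicates 1, 2 and 3. The adhesion molecule ICAM1 had 55.9 ± 1.86, NFKBIA, the NF-kB inhibitor that NF-kB itself induces, 36.0 ± 1.81 and CD83 24.9 ± 0.0752 CPM. Per length, MYC (417) was followed by NFKBIA (53.7), ICAM1 (48.7) and CD83 (28.0), with no overlap between neighbours. The immediate early factors EGR1, EGR2 and EGR3 had 0.601 ± 0.0236, 0.260 ± 0.128 and 0.400 ± 0.0713 CPM. The survival gene BCL2A1 had 0.547 ± 0.0821 CPM, and the chemokine CCL17 and the cytokine subunit EBI3 had no read.

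Plasma cell genes were divided, with 16 of 21 expressed, against 55.9% of protein-coding symbols, and a median of 89.99 CPM. Its high members include HSP90B1 (1093 CPM), PDIA4 (297) and TXNDC5 (265), endoplasmic reticulum genes that are not particular to plasma cells. CD38 is also counted in the germinal centre list. JCHAIN, which joins secreted antibody units, had 595, 628 and 619 CPM in replicates 1, 2 and 3. IRF4, a factor needed for the plasma cell fate, had 548, 570 and 578 CPM, and XBP1, the transcription factor of the secretory stress response, had 398, 429 and 430 CPM. Replicate 1 was the lowest of the 3 for each of these genes, as it was for 42.4% of all genes with a mean of 20 CPM or more. The summed level of the list ran only from 4383 to 4400 CPM over the libraries. On the per-length scale MZB1, an endoplasmic reticulum cofactor for antibody assembly, led with 1285 ± 16.3, followed by JCHAIN (1112 ± 34.6) and HSP90B1, whose libraries overlapped. PRDM1, the repressor that closes the B-cell programme, had 8.39, 9.09 and 9.65 CPM. Surface proteins of the list were unequal. SDC1, which encodes CD138, had 0.743 ± 0.144 CPM, and SLAMF7 had 0.0749 ± 0.0372 CPM. TNFRSF17, the receptor BCMA, had 13.8 ± 1.20 CPM, while CD38 had 68.1 and the integrin chain ITGA4 319 CPM. ELL2, an elongation factor for secreted antibody messages, and DERL3, a factor of endoplasmic reticulum degradation, had no read.

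A published panel for the cell of origin of large B-cell lymphoma gave expressed genes in both arms. In the germinal centre arm 6 of 7 genes were expressed, from S1PR2 (4.51 CPM) to MME (455 CPM), and SERPINA9 had no read. In the activated arm 8 of 8 genes were expressed, from TNFRSF13B (16.0 CPM) to IRF4 (566 CPM). The 5 reference genes of the panel summed to 517 ± 0.797 CPM. No class was computed, since the panel's score is defined on another platform.

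**Figure D2:**
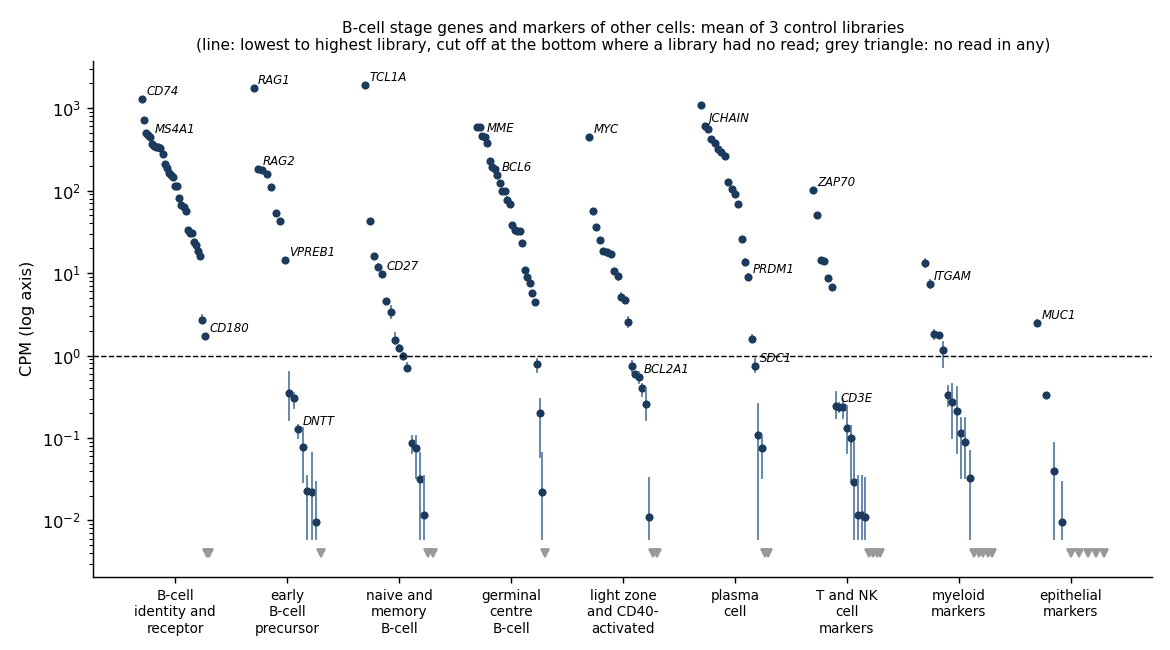
CPM on a log axis for the members of 6 B-cell stage lists and 3 lists of other cells, 1 dot per gene at the mean of the 3 control libraries with a line from the lowest to the highest library; the dashed line is 1 CPM and grey triangles are genes with no read. RAG1 and TCL1A stand above 1000 CPM in lists whose other members lie below 200 CPM, and SDC1 (0.743 CPM) lies below the line.

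Transcription factors of the B lineage were almost all expressed, with 48 of 50 at 1 CPM or more, 27 of them at 100 CPM or more, and a median of 105 CPM. ETS1 and ELF1, both of the ETS family, led by CPM with 1132 ± 22.6 and 1130 ± 39.6. Per length, ELF1 (898 ± 34) was highest and MYBL2, a regulator of cell cycle genes, came next (773 ± 23.1). PAX5, the factor that commits cells to the B lineage, had 539, 546 and 550 CPM in replicates 1, 2 and 3. Its partners TCF3 and EBF1 had 596 ± 20 and 100 ± 4.31 CPM, and per length TCF3 (298 ± 9.17) stood above EBF1 (54.1 ± 2.43) in every library. IKZF2, the Ikaros family member Helios that is best known from regulatory T cells, had 409, 436 and 440 CPM, and on the per-length scale (121 ± 5.14) it was above IKZF1 (67.9) and the other 3 family members without overlap. Of the NF-kB subunits, RELA (89.6) and NFKB1 (58.6) had the higher per-length means, and NFKB2 and RELB overlapped. KLF2, a quiescence factor of resting lymphocytes, had 8, 6 and 3 reads, and RUNX3 had 0.0555 ± 0.0424 CPM.

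**Figure D3:**
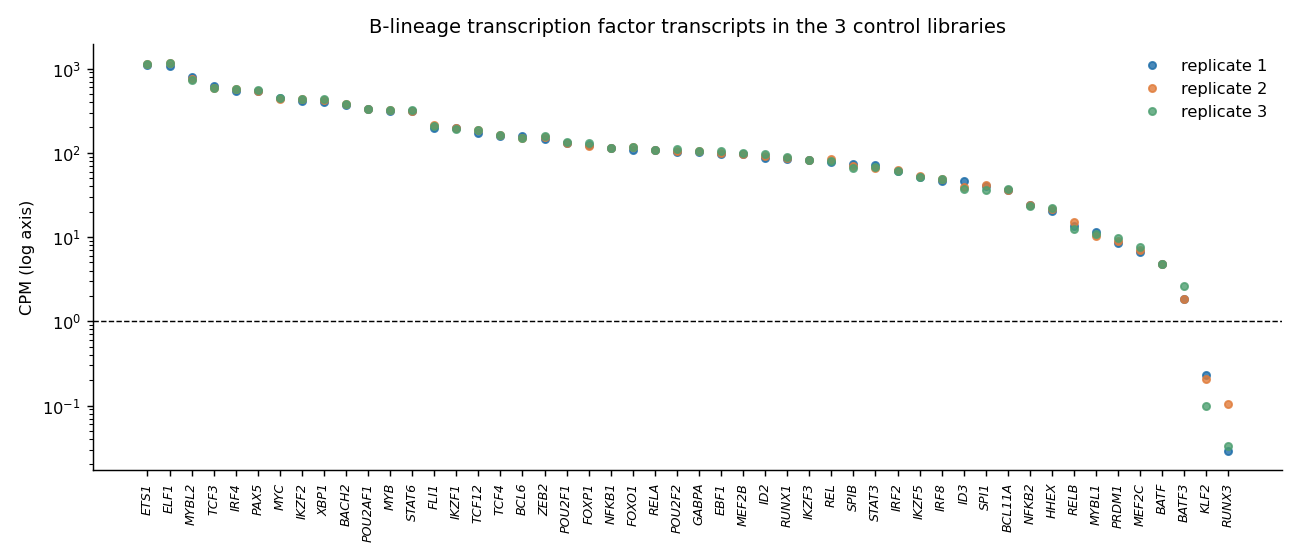
CPM on a log axis for 50 B-lineage transcription factor genes in each of the 3 control libraries, ordered by mean CPM; the dashed line is 1 CPM. The 3 libraries lie within 2-fold of each other for the 48 expressed genes, and KLF2 and RUNX3 alone lie below the line.

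Factors of other lineages were mostly silent, with 3 of 28 expressed and 16 without a read. TP63, a factor best known from basal epithelium, was the highest by CPM with 84.5, 89.3 and 91.7 CPM in replicates 1, 2 and 3. GFI1 had 23.6 ± 0.476 and ZBTB7B 23.2 ± 1.97 CPM. The T-cell factors GATA3, BCL11B, TCF7 and EOMES, the myeloid factors CEBPA, GATA2 and NFE2, and SOX2, SOX10, FOXA1, FOXA2, MYOD1, NEUROD1, TWIST1, GATA4 and NKX2-5 had no read. By symbol family, 1 of 9 PAX genes (PAX5), 0 of 6 GATA genes and 3 of 19 SOX genes were expressed. All 8 E2F genes, all 5 NF-kB genes and 7 of 9 IRF genes passed. Of 7 STAT genes 6 passed, led on the per-length scale by STAT6 (204 ± 1.86), which had 317 ± 2.27 CPM, and STAT4 had no read. Among 39 genes of the HOX clusters 10 were expressed, led by CPM by HOXA10 with 38.3, 38.3 and 38.1 CPM, HOXB4 with 26.3 ± 0.394 and HOXB3 with 21.6 ± 0.967 CPM. In the large zinc finger family 373 of 529 ZNF genes were expressed (70.5%, against 55.9% of all protein-coding symbols).

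Receptors and cytokines were read in the same way. CCR7 was the 1 of 10 CC chemokine receptors at 1 CPM or more. Of 10 Toll-like receptors 8 were expressed, and TLR9 and TLR7, the sensors of DNA and RNA in endosomes, had 42.4 ± 0.578 and 42.8 ± 1.27 CPM. Among 38 interleukin genes 2 were expressed, IL16 with 130 ± 3.05 CPM and IL23A with 2.68 ± 0.157 CPM. Olfactory receptor genes were nearly all silent, with 358 of 379 without a read and only OR2C1 (1.30 ± 0.197 CPM) above 1 CPM, and 49 of 55 keratin genes had no read.

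Anti-apoptotic genes of the BCL2 family, whose proteins hold back the pore formers BAX and BAK1, were expressed in 4 of 6 cases. For so short a list that is near the 55.9% of all protein-coding symbols. BCL2 itself had 482, 498 and 490 CPM in replicates 1, 2 and 3. MCL1 had 249, 245 and 243 CPM. BCL2L1, which encodes BCL-XL, had 76.7 ± 2.47 and BCL2L2 24.8 ± 1.53 CPM. On the per-length scale the order was MCL1 (170 ± 1.46), BCL2 (118 ± 2.14), BCL2L1 (76.0 ± 2.65) and BCL2L2 (19.5 ± 1.26), and no neighbours overlapped. The place of BCL2 depends on the length used, because its exons join to 11741 bases while its longest transcript has 7461. With the longest transcript BCL2 stood above MCL1. BCL2A1 and BCL2L10 were below 1 CPM. The BCL2 promoter window, shown because this is the most abundant survival gene of the family by CPM, lies at chr18:63319720-63320019 on the minus strand (RefSeq, GRCh38.p14) and holds 31 CpG, in capitals, with 70.7% G or C.
BCL2: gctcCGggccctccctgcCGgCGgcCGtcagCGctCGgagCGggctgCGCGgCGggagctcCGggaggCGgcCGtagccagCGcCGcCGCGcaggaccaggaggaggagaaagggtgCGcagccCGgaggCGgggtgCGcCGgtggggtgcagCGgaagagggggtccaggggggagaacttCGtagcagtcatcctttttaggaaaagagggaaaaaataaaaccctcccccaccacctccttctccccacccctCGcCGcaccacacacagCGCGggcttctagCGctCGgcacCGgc

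Pro-apoptotic members of the family were expressed in 10 of 11 cases, including 8 of 8 BH3-only genes, whose proteins trigger the pore formers. PMAIP1, which encodes NOXA, a partner of MCL1, had the highest per-length level of these (142 ± 2.91). BAX (110 ± 4.32), BCL2L11, which encodes BIM (71.7 ± 1.1), BID (56.5) and BAK1 (47.6) followed on that scale. BIK, BAD, HRK, BMF and BBC3, which encodes PUMA, were lower in that order, and only BAD and HRK overlapped between libraries. The order was the same with the longest transcript. By CPM BCL2L11 was highest, with 154, 152 and 157 in replicates 1, 2 and 3. BOK had no read.

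Further down the pathway, 15 of 17 caspase and apoptosome genes were expressed. CYCS, which encodes cytochrome c, led on the per-length scale (280 ± 4.98) and had 441 ± 8.93 CPM, and its counts are uncertain because of many processed copies in the genome. The initiator CASP8 had 62.2 ± 2.42, the scaffold APAF1 56.3 ± 1.60 and the initiator CASP9 11.4 ± 0.0284 CPM. CASP14, a caspase of skin, had no read. Of 7 inhibitor of apoptosis genes 5 were expressed, with BIRC6 at 284 ± 1.77, BIRC5, which encodes survivin, at 125 ± 5.17 and XIAP at 62.1 ± 1.60 CPM. Of 15 death receptor and adaptor genes 12 were expressed, led by CPM by TNFRSF10B, a TRAIL receptor, at 96.2 ± 2.26, while FAS had 7.55 ± 0.327 CPM.

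**Figure D4:**
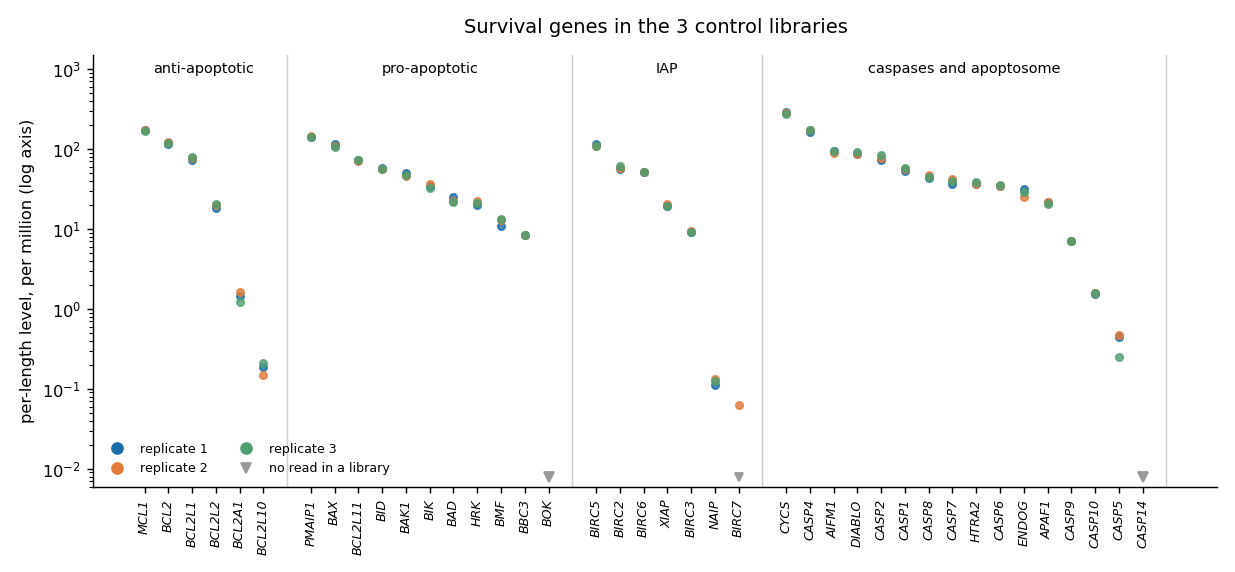
Per-length level on a log axis of BCL2 family, inhibitor of apoptosis (IAP), caspase and apoptosome genes, those named on the axis, in each of the 3 control libraries, ordered within each group by the mean; grey triangles mark a library with no read. MCL1 (170) and BCL2 (118) head the anti-apoptotic group, PMAIP1 (142) and BAX (110) the pro-apoptotic one, and BOK and CASP14 had no read.

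Signals that keep B cells alive were present in 23 of 24 cases. MTOR had 219 ± 1.67, AKT1 206 ± 3.78 and JAK1 198 ± 4.58 CPM. Of 17 genes of the cell-cycle brakes and their regulators, 15 were expressed. The ubiquitin ligase MDM2 and its relative MDM4 had 256 ± 3.23 and 198 ± 8.27 CPM, and CDKN1A, which encodes p21, had 14.5 ± 1.34 CPM. CDKN2A, which encodes p16 and ARF, had 64.1, 62.1 and 60.9 CPM, while its neighbour CDKN2B had no read in any library. CDKN1C also had no read. The proliferation genes were high, with MKI67 at 1013, 1013 and 1019 CPM and all 15 mitosis genes at 100 CPM or more. D-type cyclins, which start the cycle, were unequal. CCND3 had 125, 118 and 118 CPM, CCND1 had 0.0232 ± 0.0402 CPM and CCND2 had no read.

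Of 35 genes on a list of lymphoma driver genes and genes related to them, 31 were expressed. KMT2D and SETD1B, the histone methyltransferases the study is about, had 272, 260 and 274 CPM and 59.9, 55.2 and 54.3 CPM. SETD1A, the closest relative of SETD1B, had 81.8 ± 3.51 CPM. On the per-length scale KMT2D (39.2 ± 1.07) and SETD1A (35.9 ± 1.45) were above SETD1B (19.2 ± 0.968) in every library. The acetyltransferases EP300 and CREBBP had 228 ± 4.75 and 132 ± 1.17, EZH2, which writes the repressive H3K27 mark, 158 ± 5.92 and the small GTPase RHOA 558 ± 0.678 CPM. TNFRSF14, which encodes HVEM, had 1 read in replicate 2 and none in replicates 1 and 3, and the kinase SGK1 and the costimulatory ligand CD70 had no read.

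Antigen presentation genes gave a mixed picture that runs along chromosome 6. HLA-C had 347, 344 and 349 CPM and HLA-B 297, 312 and 297 CPM in replicates 1, 2 and 3. B2M, their shared light chain encoded on chromosome 15, had 169 ± 2.26 CPM, and CIITA, the activator of class II genes on chromosome 16, had 121 ± 3.27 CPM. HLA-DRA, a class II gene that CIITA activates, had 21.8 ± 1.05 CPM, HLA-DQB1 and HLA-F had no read, HLA-E 0.265 ± 0.0476 and the peptide transporter TAP1 0.0207 ± 0.0180 CPM. Across the extended MHC region (chromosome 6, 28500000 to 33500000, hg38), 38 of 171 protein-coding genes were expressed (22.2%), against 54.1% on the rest of chromosome 6 and 57.1% on all other autosomes. No read was found for 41.5% of the region's protein-coding genes, against 25% and 24.4%. The low values also took in some genes that nearly every cell uses. Of 380 symbols of ribosome, translation, proteasome, splicing, respiration and transport machinery, 15 lay below 1 CPM, and 5 of the 6 in the MHC region were among them. The 15 include restricted or inducible forms, such as PSMB11, PSMA8, RPL3L, RPL10L and EIF4E1B and, in the MHC region, the immunoproteasome subunits PSMB8 and PSMB9. Others in the region were VARS, the valine tRNA synthetase, with 4, 2 and 2 reads, and MRPS18B, a mitochondrial ribosomal protein gene, with 3, 5 and 2. How reads that align to several places were counted is not stated, and its part in these low values was not tested. NDUFA3 and PRPF31, neighbours on chromosome 19, and NDUFA6 on chromosome 22 were likewise at 0.0652, 0.0400 and 0.0226 CPM.

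The same region held many of the genes that differed most between replicates. Of 11839 genes with a mean of 30 counts or more, 45 (0.38%) differed at least 2-fold between the highest and the lowest library, and 9 of these lay among the 48 such genes of the MHC region. The class II gene HLA-DRB4, with 6, 170 and 8 reads in replicates 1, 2 and 3, had no matched position. It is among the 45 but is not counted in the region. CLIC1, a chloride channel family gene, had 4, 3 and 693 reads in replicates 1, 2 and 3. HLA-DPA1 had 3, 7 and 410 reads, TRIM27 337, 2 and 2, and the ribosomal protein gene RPS18 277, 1478 and 86. Outside the region EEF1D, a translation factor subunit, had 19, 968 and 15 reads and PRPF8, a core splicing factor, 244, 7 and 10. In each of these a single library was far above the others, and it was not the same library. Their means describe no common level: without the high library CLIC1 fell from 7.71 to 0.110 CPM, TRIM27 from 3.31 to 0.0679, HLA-DPA1 from 4.63 to 0.165, EEF1D from 11.6 to 0.524 and PRPF8 from 2.55 to 0.287 CPM. Among all members of the lists and families, HLA-DPA1 and RPS18 were the 2 with such a range. Over all 11797 expressed genes, these included, the median coefficient of variation was 3.56%. The counting error computed from each gene's mean count had a median of 2.97%. The median of an SD from 3 libraries tends to lie below the true SD, so setting the 2 side by side understates the spread beyond counting.

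**Figure D5:**
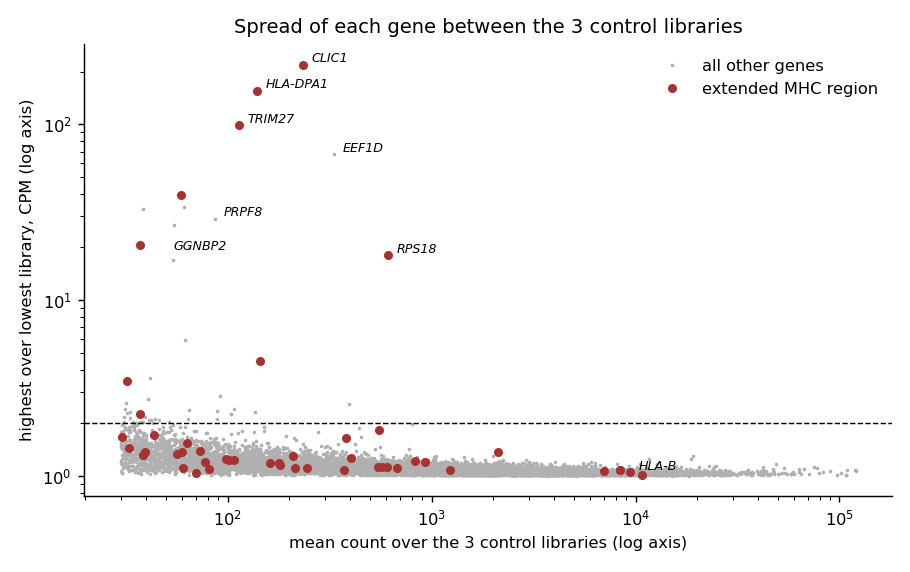
Highest over lowest CPM among the 3 control libraries against the mean count, both on log axes, for 11839 genes with a mean of 30 counts or more (3 counts in place of fewer); red points lie in the extended MHC region and the dashed line is 2-fold. Nearly all genes lie under the line, and 6 of the 13 genes at 10-fold or more are placed in the MHC region, CLIC1 highest. HLA-DRB4, which had no matched position, is drawn with all other genes.

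Replicate 1 stood slightly apart from replicates 2 and 3 in gene groups that were chosen after the values were seen. Of 15 glycolytic enzyme genes with a mean of 20 CPM or more, 15 were highest in replicate 1, where 34.7% of all 7672 genes at that level were highest. The median difference from the mean of the other libraries was 0.10 on the log2 scale, and the summed level was 15022, 13849 and 13859 CPM in replicates 1, 2 and 3. LDHA, the lactate dehydrogenase chain of muscle type, had 1563 ± 137 CPM and GPI, the enzyme after hexokinase, 373 ± 43.6 CPM.

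Genes of the amino acid and endoplasmic reticulum stress response went the other way. Of 14 such genes, 12 were lowest in replicate 1, where 42.4% of all genes were lowest, with a median log2 difference of -0.16. In replicate 3 10 of the 14 were highest, where 33.8% of all genes were. The summed level differed little, with 3959, 4000 and 4052 CPM in replicates 1, 2 and 3. ATF4, the factor that drives this response, had 911 ± 15.5 CPM, its partner DDIT3 25.1 ± 4.43 and the asparagine synthetase gene ASNS 344 ± 2.61 CPM. What differed between the libraries was not tested.

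Letters in the promoter windows varied with the level of the gene. Over 11725 protein-coding genes whose RefSeq start lies within 100 bases of a GENCODE start, the median number of CpG in the 300 bases was 26 at 1000 CPM or more, 28 from 100 to 1000 CPM, 27 from 10 to 100, 23 from 1 to 10, 14 below 1 and 7 for genes with no read. The ETS letters CCGGAAGT, searched on both strands, were in 12.6% of windows from 100 to 1000 CPM and in 0.933% of windows with no read, against 6.79% of all, but in 7.55% of the 53 windows at 1000 CPM or more. TATAAA ran the other way from 10 CPM down, in 4.28% of windows from 10 to 100 CPM and 19.96% with no read, but was also in 15.1% of the windows at 1000 CPM or more. Over all windows the median was 23 CpG. The B-cell identity list had a median of 12 over 21 windows, the naive and memory list 2.5 over 12, the germinal centre list 20.5 over 20 and the transcription factor list 32 over 31. These are descriptions of letters in the windows, over genes that are not independent.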

How the data were processed

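Human OCI-LY8 RNA was purified on columns and made into stranded poly(A) libraries, per the labels' protocols. The submitters' processing notes name CASAVA 1.8, Trimmomatic, HISAT2, featureCounts, DESeq2 and hg38. Not given in the sources used here are the annotation, the strand setting and how multi-aligned reads were treated. The authors deposited whole-number read counts for 26485 gene symbols. A deposited table of log2 values was not used. CPM is the count over the column sum, times 1000000, over the 3 control columns; 3 counts stand for 0.0871 to 0.104 CPM per library. Overlapping genes and near-identical copies are uncertain, and 204 of 12902 genes with a mean of 10 counts carried the same 3 counts as another gene.

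Exon lengths and positions came from GENCODE 29 (hg38) for 24614 symbols, of which 715 matched through another symbol; 1871 symbols did not match. Genes at 1 CPM, genes with no read and genes with a 2-fold range were counted, with no test, since the samples form 1 group. The 3 libraries differed by more than sampling noise (chi-square per degree of freedom 1.86 to 3.98 by pair). TMM library sizes came from edgeR 4.0.16 and size factors from DESeq2 1.42.0, in R 4.3.3. The members and lists were chosen with earlier results of these data known. Named were the 20 highest genes by CPM and 10 per length, members of the stage, B-lineage factor and BCL2 family lists, up to 5 highest members and those with no read of other lists and families, and the 10 with the largest range between libraries; others were chosen after their values were seen, as were the MHC region, the machinery symbols, the promoter windows and the longest-transcript length. XIST and genes of the Y chromosome were left out of naming. Some other genes that this rule names are not reported here. The counting rules were tested on simulated data.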

Additional observations from a re-analysis of the deposited data

How the results depend on the processing

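No paired analysis was possible because the values come from 1 group and no test, and no comparison with the knockout libraries was made. Leaving out each library in turn gave 11790 to 11815 expressed genes, 9487 to 9556 genes with no read, 875 to 877 expressed members over all lists and families (875 as reported) and 21 to 32 genes with a 2-fold range (45 as reported, 21 without replicate 3). That count was 256 with a mean of at least 10 counts, 11 with at least 100, and 36 without the MHC region. The 10 most abundant genes held 6.26% of the total per length (6.16% with the longest transcript) and 3.5% without cytosolic ribosomal protein genes in the total, and 620 genes (598 with the longest transcript) reached 50% of the per-length total. A threshold of 0.5 or 2 CPM gave 12478 or 11104 expressed genes. Of 224 list counts under these alternatives 3 moved by over 1.5 times, all in short lists of other cells. TMM or DESeq2 scaling moved no named gene by over 1.01-fold. Depth limits genes below 0.104 CPM, where 3 counts per library are not reached.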
